A study of Homo sapiens with 18 samples.

Results

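The genes examined here are those of the ISG15 conjugation pathway, chosen by name and not by their values: the modifier ISG15, its activating enzyme UBA7, its conjugating enzyme UBE2L6, the ligases HERC5 and HERC6, and the protease USP18. All 6 have a row among the 13141 genes of the deposited table. Their signals come from 18 Illumina arrays (HumanHT-12 V4) that profiled 786-O cells, an established human clear cell renal carcinoma line that lacks functional VHL. There were 6 groups of 3 arrays: VHL-/- cells and VHL+/+ cells, each with a scramble control shRNA (SCR), PBRM1 shRNA or KDM5C shRNA. For the comparison of these backgrounds the study speaks of VHL re-expression. All groups are 1 cell line carrying a stably expressed shRNA, and the labels list no treatment and no added interferon. The study names 1 hairpin against each target for this experiment. VHL is the substrate-binding part of the ubiquitin ligase that marks HIF for destruction, PBRM1 is a subunit of the PBAF chromatin remodelling complex, and KDM5C is a histone demethylase. The study asked how loss of PBRM1 or of KDM5C alters the transcriptome in the presence and absence of VHL.

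ISG15 is a ubiquitin-like protein that is attached to other proteins in a relay similar to that of ubiquitin. UBA7 activates it, UBE2L6 carries it, and a ligase, in human cells mainly HERC5, passes it to the target protein. USP18 removes it again and, apart from this, binds the interferon receptor chain IFNAR2 and dampens signalling. All of these genes are known to be induced by type I interferon through ISGF3, a transcription factor complex that includes STAT2 and IRF9 and binds a promoter element called the ISRE.

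Because of that element, promoter sequences are shown for the modifier and for both ligases. They come from RefSeq (GRCh38.p14) and run from 250 bases before the annotated start to 50 bases after it. The capitals mark each match to the ISRE core, searched on both strands as GAAA, any 2 bases and GAAA again, and overlapping matches were counted separately.

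ISG15, chr1:1013247-1013546, plus strand, has 2 overlapping matches, GAAAGGGAAA and GAAACCGAAA, whose first bases lie 113 and 107 bases before the start.
ISG15: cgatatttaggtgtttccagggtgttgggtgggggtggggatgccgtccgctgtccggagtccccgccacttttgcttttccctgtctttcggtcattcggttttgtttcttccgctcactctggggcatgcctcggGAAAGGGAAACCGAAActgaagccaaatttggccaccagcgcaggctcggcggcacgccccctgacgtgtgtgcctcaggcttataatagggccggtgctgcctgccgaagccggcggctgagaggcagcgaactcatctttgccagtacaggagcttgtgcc

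HERC5, chr4:88456869-88457168, plus strand, has 3 matches on the opposite strand, TTTCCTTTTC at 125 and at 119 bases before the start, which overlap, and TTTCGTTTTC at 74 bases before it.
HERC5: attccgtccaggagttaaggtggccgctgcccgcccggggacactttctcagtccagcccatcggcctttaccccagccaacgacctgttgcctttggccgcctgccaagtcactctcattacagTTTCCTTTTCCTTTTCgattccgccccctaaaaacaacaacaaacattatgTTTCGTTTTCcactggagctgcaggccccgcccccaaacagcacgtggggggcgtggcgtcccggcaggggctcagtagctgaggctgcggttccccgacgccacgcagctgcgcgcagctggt

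HERC6, chr4:88378602-88378901, plus strand, is the gene next to HERC5 on chromosome 4 and has no match in this window.
HERC6: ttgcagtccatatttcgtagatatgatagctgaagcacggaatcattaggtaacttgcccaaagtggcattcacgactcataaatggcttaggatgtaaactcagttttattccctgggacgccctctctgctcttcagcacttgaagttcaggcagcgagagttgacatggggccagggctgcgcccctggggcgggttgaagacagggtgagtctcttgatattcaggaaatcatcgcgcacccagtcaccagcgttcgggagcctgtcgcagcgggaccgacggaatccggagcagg

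Of 35116 promoters of this length, 1255 (3.57%) held the motif. Of the 6 genes, 4 had a promoter entry and 2 of these held the motif. UBE2L6, on chromosome 11, had 2 overlapping entries without it, and UBA7 and USP18, on chromosomes 3 and 22, had no entry. A match describes the letters of the window only.

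The values are log2 signals, quantile-normalized by the authors, with 1 value a gene, so a difference of 1 is a 2-fold change. Signals of different genes cannot be set against each other, because they come from different probes. Replicates 1 and 2 of every group were on chip 1 and replicate 3 on chip 2. A gene was called when its adjusted p (limma with a chip term, Benjamini-Hochberg over all 13141 genes) was under 0.05 and its fold change at least 1.5. Nothing in the labels says that the 3 arrays of a group came from separate cultures, so p-values measure the spread between these arrays, which may be technical. In a bulk RNA sample, fewer cells with a transcript and less of it per cell cannot be told apart.

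Arrays of a group correlated at 0.976 to 0.994 across genes. PBRM1 mRNA, the target of the shRNA, did not pass the test in either background: its log2 fold change was -0.06 (SE 0.12, adjusted p = 0.864) in VHL-/- and -0.15 (SE 0.12, adjusted p = 0.639) in VHL+/+ cells. The knockdown is therefore not seen on these arrays, and PBRM1 shRNA below means the arrays labelled so. KDM5C has no row among the genes used here, so the arrays labelled KDM5C shRNA have no such check. Apart from the arrays, the study reports protein blots and RT-qPCR of selected genes in 786-O cells with further shRNAs against both targets. VHL mRNA differed by 0.08 between VHL+/+ and VHL-/- SCR cells (adjusted p = 0.766), so that this comparison too rests on the labels. Of 8 markers of 786-O cells, PAX8, CDH2, VIM, CD70, CAV1, KRT8 and KRT18 had a row in the table, which holds genes that passed the authors' detection filter. Of 10 leukocyte and endothelial markers, LYZ, HLA-DRA and PECAM1 had a row, and their log2 fold changes lay between -0.07 and 0.05 in the comparisons of either shRNA with SCR in VHL-/- cells.

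**Figure D1:**
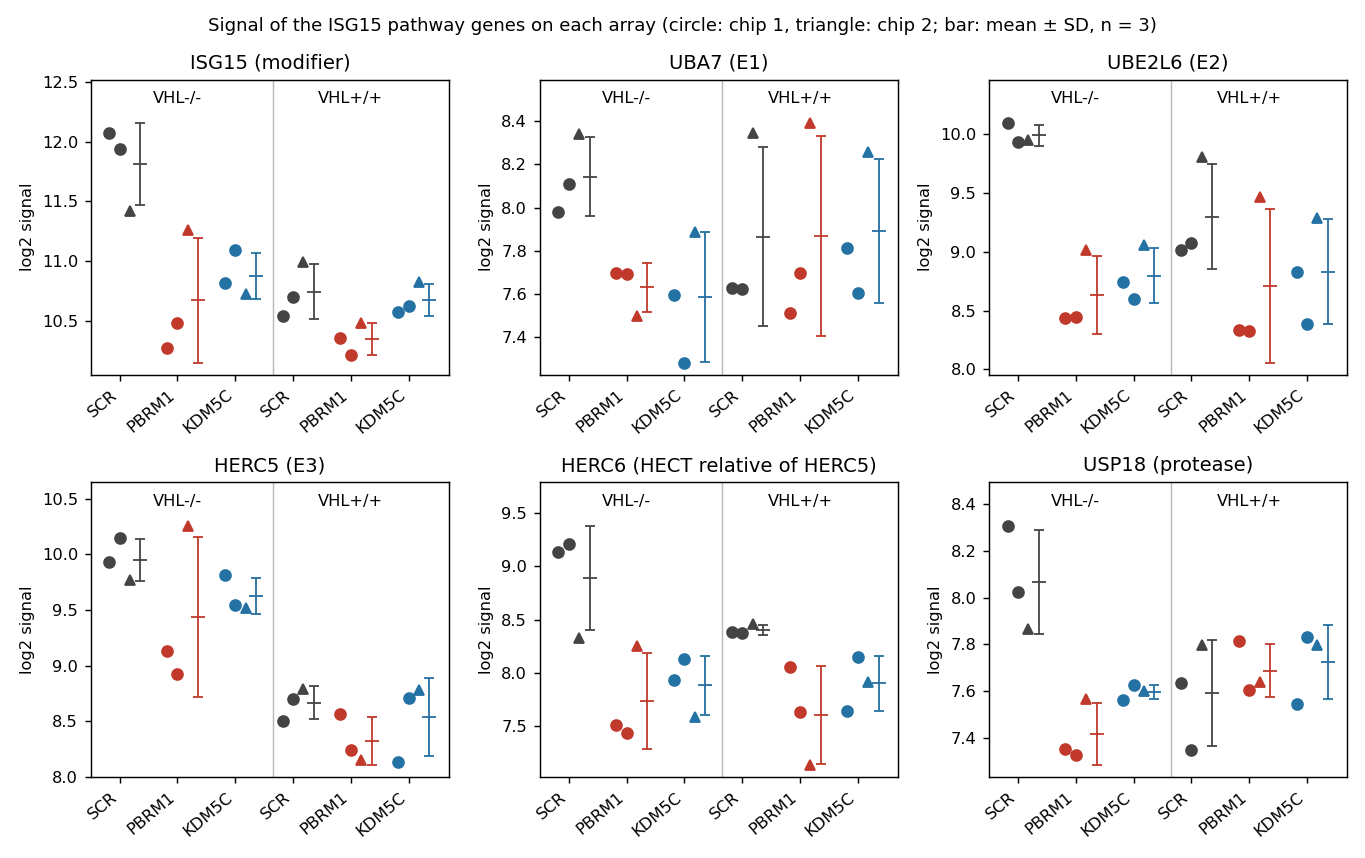
Log2 signal of each of the 6 genes (vertical axis, 1 panel a gene) on each of the 18 arrays, by group (horizontal axis); circles are chip 1, triangles chip 2, and bars are group means. For ISG15, UBE2L6 and USP18 the 3 VHL-/- SCR arrays are the highest of all, and for HERC5 all 9 VHL+/+ arrays are below all 9 VHL-/- arrays.

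In VHL-/- cells, 4 of the 6 genes (ISG15, UBE2L6, HERC6 and USP18) were lower with PBRM1 shRNA than with SCR, by 1.57-fold to 2.57-fold. With KDM5C shRNA, 3 of the 6 (ISG15, UBE2L6 and HERC6) were lower, by 1.90-fold to 2.29-fold. In VHL+/+ cells none of the 6 passed the test with either shRNA. Of all genes, 0.89% were called lower with PBRM1 shRNA and 0.654% with KDM5C shRNA in VHL-/- cells. In VHL+/+ cells these shares were 0.304% and 0.426%. The 2 shRNAs were compared with the same SCR arrays, so their results are not independent of each other.

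ISG15, the modifier itself, had its highest signal in VHL-/- SCR cells, at 12.07, 11.94 and 11.42 in replicates 1 to 3. With PBRM1 shRNA it was 10.27, 10.48 and 11.26, and with KDM5C shRNA 10.82, 11.09 and 10.73. The lowest SCR array was above the highest shRNA array, although SCR replicate 3 and PBRM1 shRNA replicate 3 lay close together. The log2 fold change was -1.14 (SE 0.20, adjusted p = 0.0031, 2.20-fold lower) with PBRM1 shRNA and -0.93 (SE 0.20, adjusted p = 0.0131, 1.90-fold lower) with KDM5C shRNA. In VHL+/+ cells ISG15 signals were 10.54, 10.70 and 10.99 with SCR, 10.36, 10.22 and 10.49 with PBRM1 shRNA, and 10.58, 10.62 and 10.83 with KDM5C shRNA. Every PBRM1 shRNA array was below every SCR array there, while the KDM5C shRNA and SCR arrays overlapped. Neither difference passed (-0.39, adjusted p = 0.39, and -0.07, adjusted p = 0.901).

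UBE2L6, the E2 enzyme that receives ISG15 from UBA7, showed the smallest adjusted p of the 6 genes with both shRNAs. In VHL-/- cells its signals were 10.09, 9.93 and 9.95 with SCR, 8.44, 8.45 and 9.02 with PBRM1 shRNA, and 8.74, 8.59 and 9.06 with KDM5C shRNA. Every SCR array was above every shRNA array on both chips. The log2 fold change was -1.36 (SE 0.17, adjusted p = 0.000192, 2.57-fold lower) with PBRM1 shRNA and -1.20 (SE 0.17, adjusted p = 0.000626, 2.29-fold lower) with KDM5C shRNA. In VHL+/+ cells the signals were 9.01, 9.07 and 9.81 with SCR, 8.34, 8.33 and 9.46 with PBRM1 shRNA, and 8.82, 8.39 and 9.28 with KDM5C shRNA. The chip 2 array was the highest of each VHL+/+ group, and the groups overlapped until the chip difference was removed. The log2 fold changes there, -0.59 (SE 0.17, adjusted p = 0.0888) and -0.47 (SE 0.17, adjusted p = 0.148), did not pass. The former did pass without VHL+/+ PBRM1 shRNA replicate 3 (adjusted p = 0.0201) or without VHL-/- SCR replicate 3 (adjusted p = 0.0254).

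UBA7, the E1 enzyme, did not pass in any comparison with all arrays in the fit. UBA7 signals in VHL-/- cells were 7.98, 8.11 and 8.34 with SCR, 7.70, 7.69 and 7.50 with PBRM1 shRNA, and 7.59, 7.28 and 7.89 with KDM5C shRNA. All SCR arrays lay above all shRNA arrays in this background. The log2 fold changes were -0.51 (SE 0.16, adjusted p = 0.0686) with PBRM1 shRNA and -0.56 (SE 0.16, adjusted p = 0.0506) with KDM5C shRNA. The PBRM1 shRNA value was -0.26 (adjusted p = 0.25) without VHL-/- PBRM1 shRNA replicate 3, and with chip 1 arrays alone the KDM5C shRNA difference was called (-0.61, adjusted p = 0.0164). In VHL+/+ cells UBA7 signals were 7.63, 7.62 and 8.34 with SCR, 7.51, 7.70 and 8.39 with PBRM1 shRNA, and 7.81, 7.60 and 8.26 with KDM5C shRNA, and the groups overlapped. The 95% intervals of the 2 differences from SCR there ran from -0.33 to 0.33 and from -0.30 to 0.36.

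The neighbouring ligase genes HERC5 and HERC6 differed from each other in their pattern. HERC5, the main ISG15 ligase of human cells, did not pass with either shRNA. HERC5 signals in VHL-/- cells were 9.93, 10.15 and 9.77 with SCR, 9.13, 8.93 and 10.26 with PBRM1 shRNA, and 9.82, 9.55 and 9.52 with KDM5C shRNA. PBRM1 shRNA replicate 3 was the highest of the 18 arrays, while the other two were the lowest of the VHL-/- arrays. The log2 fold change was -0.51 (SE 0.25, adjusted p = 0.289) with PBRM1 shRNA, and without that replicate it was -0.93 (adjusted p = 0.00582). With KDM5C shRNA it was -0.32 (SE 0.25, adjusted p = 0.571). In VHL+/+ cells HERC5 signals were 8.50, 8.70 and 8.79 with SCR, 8.56, 8.24 and 8.15 with PBRM1 shRNA, and 8.14, 8.71 and 8.78 with KDM5C shRNA, and the groups overlapped. The differences from SCR were -0.35 (adjusted p = 0.58) and -0.13 (adjusted p = 0.846).

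HERC6 encodes a close relative of HERC5 that serves as the ISG15 ligase in mice, which lack HERC5. HERC6 signals in VHL-/- cells were 9.14, 9.22 and 8.33 with SCR, 7.52, 7.44 and 8.25 with PBRM1 shRNA, and 7.93, 8.13 and 7.59 with KDM5C shRNA. The groups did not overlap, but SCR replicate 3 exceeded PBRM1 shRNA replicate 3 by 0.08. The log2 fold change was -1.16 (SE 0.25, adjusted p = 0.0107, 2.23-fold lower) with PBRM1 shRNA and -1.01 (SE 0.25, adjusted p = 0.0266, 2.01-fold lower) with KDM5C shRNA. In VHL+/+ cells HERC6 signals were 8.38, 8.38 and 8.46 with SCR, 8.06, 7.64 and 7.14 with PBRM1 shRNA, and 7.64, 8.15 and 7.92 with KDM5C shRNA. Every VHL+/+ shRNA array was below every VHL+/+ SCR array, yet neither difference passed (-0.80, SE 0.25, adjusted p = 0.113, and -0.50, SE 0.25, adjusted p = 0.3). The HERC6 difference for PBRM1 shRNA in VHL+/+ cells did pass without VHL-/- PBRM1 shRNA replicate 3 (adjusted p = 0.0243).

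USP18 is the protease that removes ISG15. Its signals in VHL-/- cells were 8.31, 8.03 and 7.87 with SCR, 7.35, 7.33 and 7.57 with PBRM1 shRNA, and 7.56, 7.63 and 7.60 with KDM5C shRNA. The SCR arrays were above all shRNA arrays. The log2 fold change was -0.65 (SE 0.12, adjusted p = 0.00473, 1.57-fold lower) with PBRM1 shRNA. With KDM5C shRNA it was -0.47 (SE 0.12, adjusted p = 0.0376), which is under 1.5-fold and therefore not called. In VHL+/+ cells USP18 signals were 7.63, 7.35 and 7.80 with SCR, 7.82, 7.61 and 7.64 with PBRM1 shRNA, and 7.54, 7.83 and 7.80 with KDM5C shRNA. The groups overlapped, with differences of 0.09 (adjusted p = 0.807) and 0.13 (adjusted p = 0.638). USP41, a near-identical copy of USP18, has no row here, and whether the USP18 probe also reads it was not tested.

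**Figure D2:**
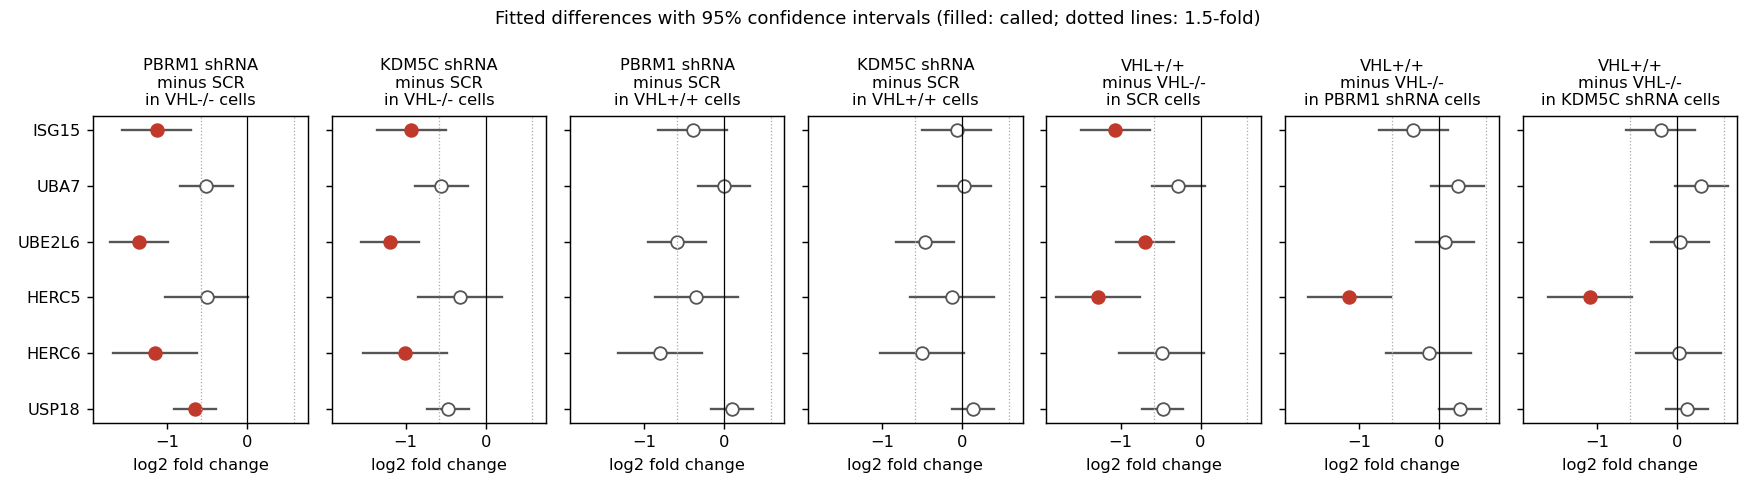
Log2 fold change of the 6 genes (horizontal axis; bars are 95% confidence intervals from limma) in the comparisons of each shRNA with SCR in VHL-/- and VHL+/+ cells and of VHL+/+ with VHL-/- cells under each shRNA, 1 panel a comparison. Filled points were called, and dotted lines mark 1.5-fold. With either shRNA in VHL-/- cells the values of all 6 genes lie left of 0, at -0.32 to -1.36.

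After the chip difference was removed, 5 of the 6 genes, all but HERC5, had no overlap between SCR and either shRNA in VHL-/- cells. The same held for 11.9% of all genes, counted in the lower direction, with PBRM1 shRNA and for 11.1% with KDM5C shRNA. In VHL+/+ cells it held for 3 of the 6 with PBRM1 shRNA, namely ISG15, UBE2L6 and HERC6 (all genes, 10.1%). With KDM5C shRNA it held for 2, UBE2L6 and HERC6 (all genes, 13.1%). The exact two-sided permutation test gave p = 0.1 for each gene without overlap, the smallest p that 3 arrays against 3 allow. The median log2 fold change of the 6 genes in VHL-/- cells was -0.89 with PBRM1 shRNA and -0.74 with KDM5C shRNA, beside 0.00 for all genes in both. In VHL+/+ cells it was -0.37 and -0.10.

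Several of these calls depended on single arrays. With PBRM1 shRNA in VHL-/- cells, HERC6 did not pass without SCR replicate 1 (adjusted p = 0.0585) or 2 (0.0664), or without PBRM1 shRNA replicate 1 (0.0596) or 2 (0.0694). USP18 fell below 1.5-fold without SCR replicate 1 (-0.52). With KDM5C shRNA, ISG15 did not pass without SCR replicate 1 (adjusted p = 0.0853), SCR replicate 2 (0.073) or KDM5C shRNA replicate 3 (0.0646). HERC6 did not pass without SCR replicate 1 (0.121), SCR replicate 2 (0.13), KDM5C shRNA replicate 1 (0.0654) or replicate 3 (0.0944). Without VHL-/- SCR replicate 3, USP18 did pass with KDM5C shRNA (-0.61, adjusted p = 0.0133). UBE2L6 with either shRNA and ISG15 with PBRM1 shRNA were called with any single array left out.

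The chips were then considered separately. In VHL-/- cells, the PBRM1 shRNA difference on chip 1 (2 arrays a group) and chip 2 (1 array a group) was -1.62 and -0.16 for ISG15, -1.57 and -0.94 for UBE2L6, and -1.70 and -0.08 for HERC6. It was -0.35 and -0.84 for UBA7 and -0.83 and -0.30 for USP18, and for HERC5 it turned direction, from -1.01 to 0.49. The differences of ISG15, HERC6 and HERC5 thus came from chip 1 for the most part, whereas UBE2L6 differed on both chips. The KDM5C shRNA differences were more alike between the chips, at -1.05 and -0.69 for ISG15, -1.35 and -0.90 for UBE2L6, and -1.14 and -0.74 for HERC6. They were -0.61 and -0.45 for UBA7, -0.36 and -0.25 for HERC5, and -0.57 and -0.27 for USP18. Between the chips themselves, UBA7 (0.43 higher on chip 2, adjusted p = 0.00343) and UBE2L6 (0.58 higher, adjusted p = 0.000899) were among the 23.8% of genes that differed at adjusted p under 0.05. The part of the chip in these results beyond the chip term was not tested.

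**Figure D3:**
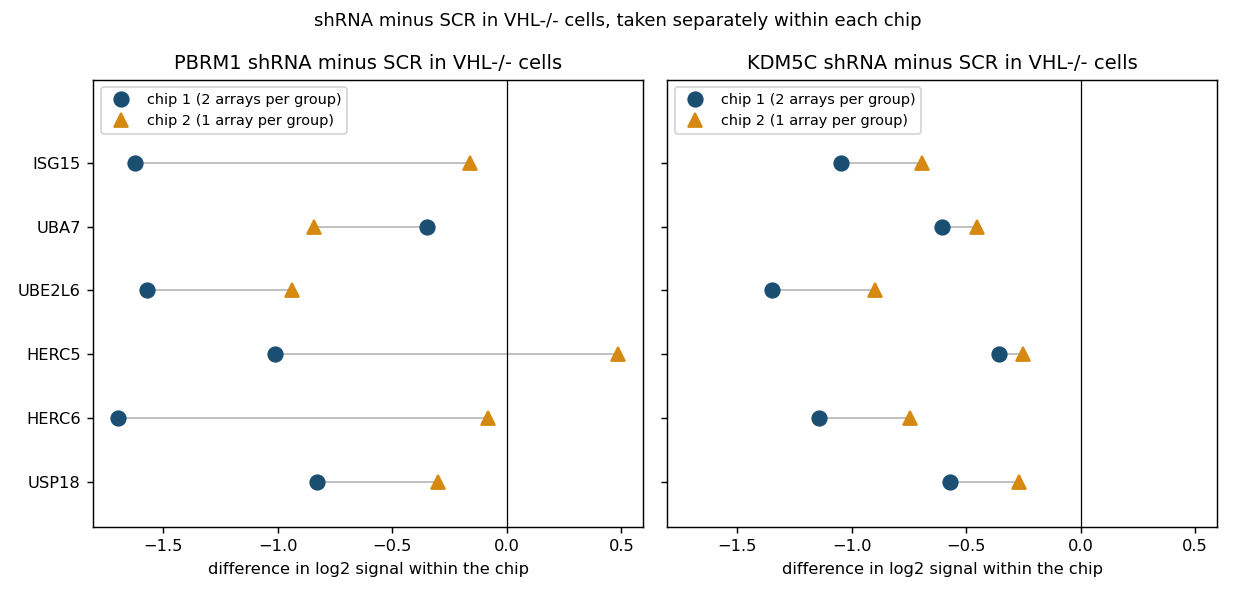
Log2 difference of each shRNA from SCR in VHL-/- cells (horizontal axis) for the 6 genes (vertical axis), on chip 1 (2 arrays a group) and chip 2 (1 array a group). With PBRM1 shRNA the HERC5 value turns from -1.01 on chip 1 to 0.49 on chip 2, while the UBE2L6 values are -1.57 and -0.94.

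VHL+/+ and VHL-/- cells with SCR were compared next. ISG15, UBE2L6 and HERC5 were lower in VHL+/+ cells, with log2 fold changes of -1.07 (SE 0.20, adjusted p = 0.00861, 2.09-fold), -0.69 (SE 0.17, adjusted p = 0.0369, 1.62-fold) and -1.28 (SE 0.25, adjusted p = 0.00863, 2.43-fold). Of all genes, 0.685% were called lower in this comparison. USP18 was under 1.5-fold (-0.48, SE 0.12, adjusted p = 0.0466), and UBA7 (-0.28, adjusted p = 0.435) and HERC6 (-0.49, adjusted p = 0.379) did not pass. The groups did not overlap for 4 of the 6 genes (all genes, lower direction, 12.3%). This comparison uses the same VHL-/- SCR arrays as the shRNA comparisons. Leaving out VHL+/+ SCR replicate 1 or VHL-/- SCR replicate 2 left none of the 3 genes called (adjusted p = 0.0571 and 0.0533 for ISG15, 0.0528 and 0.0557 for HERC5, 0.164 and 0.151 for UBE2L6). Without VHL-/- SCR replicate 1, HERC5 alone was called, with ISG15 at adjusted p = 0.0616 and UBE2L6 at 0.198. The UBE2L6 call was also lost without VHL+/+ SCR replicate 2 (0.102) or 3 (0.0595), without VHL+/+ KDM5C shRNA replicate 3 (0.0501), or without the chip term (0.388). USP18 was called without VHL-/- SCR replicate 3 (-0.61, adjusted p = 0.0167). On chips 1 and 2 the difference was -1.38 and -0.43 for ISG15, -0.97 and -0.14 for UBE2L6, and -1.44 and -0.98 for HERC5.

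HERC5 was the gene of the 6 whose difference between VHL backgrounds was called with every shRNA. It was -1.12 (SE 0.25, adjusted p = 0.0212, 2.17-fold lower in VHL+/+ cells) with PBRM1 shRNA and -1.09 (SE 0.25, adjusted p = 0.0244, 2.12-fold) with KDM5C shRNA. Of all genes, 0.51% and 0.563% were called lower in these comparisons. None of the other members was called there: ISG15 differed by -0.32 (adjusted p = 0.561) and -0.20 (adjusted p = 0.729), and UBE2L6 by 0.07 (adjusted p = 0.926) and 0.04 (adjusted p = 0.958). The highest HERC5 signal on the 9 VHL+/+ arrays was 8.79 and the lowest on the 9 VHL-/- arrays 8.93. All VHL+/+ arrays lay below all VHL-/- arrays for 0.609% of all genes. On chip 1 (2 arrays a group) and chip 2 (1 array a group) the HERC5 difference was -0.62 and -2.10 with PBRM1 shRNA. With KDM5C shRNA it was -1.26 and -0.74. The HERC5 call with PBRM1 shRNA was lost without VHL+/+ PBRM1 shRNA replicate 2 (adjusted p = 0.0667) or 3 (0.147) or VHL-/- PBRM1 shRNA replicate 3 (0.0644, log2 fold change -0.70). That with KDM5C shRNA was lost without VHL+/+ KDM5C shRNA replicate 1 (0.121) or 3 (0.0671) or VHL-/- KDM5C shRNA replicate 1 (0.102) or 2 (0.0626).

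The order of the 6 groups, by means from which the chip difference was removed, also set the genes apart. For ISG15, VHL-/- SCR cells had a mean of 11.81 ± 0.43 (SD, n = 3), 0.93 above VHL-/- KDM5C shRNA cells at 10.88 ± 0.26 (SD, n = 3), and each of the lower 5 groups overlapped with its neighbour. For UBE2L6, VHL-/- SCR cells (9.99 ± 0.38, SD, n = 3) stood above VHL+/+ SCR cells (9.30 ± 0.11, SD, n = 3), which stood above the 4 shRNA groups (8.63 to 8.83). For HERC6 the 2 SCR groups, at 8.89 ± 0.38 and 8.41 ± 0.15 (SD, n = 3 each), overlapped each other and had higher means than the 4 shRNA groups (7.61 to 7.90), but VHL-/- PBRM1 shRNA replicate 3 (8.38) lay above VHL+/+ SCR replicates 1 and 2 (both 8.32). For HERC5 the order followed VHL, with the 3 VHL-/- groups at 9.44 to 9.95 and the 3 VHL+/+ groups at 8.32 to 8.67. For UBA7 the VHL-/- SCR group (8.14 ± 0.10, SD, n = 3) had the highest mean and overlapped the VHL+/+ SCR and VHL+/+ PBRM1 shRNA groups, and for USP18 all neighbours overlapped. The distance from the highest to the lowest group mean was 1.63 for HERC5, 1.46 for ISG15, 1.36 for UBE2L6, 1.28 for HERC6, 0.65 for USP18 and 0.56 for UBA7. In the deposited values, the 3 VHL-/- SCR arrays were the highest of the 18 for ISG15, UBE2L6 and USP18 (3 of 6 genes), as for 1.17% of all genes. This separation and that of HERC5 by VHL were chosen for description after the values were seen.

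Whether an shRNA effect differed between the VHL backgrounds was tested as an interaction. The effect in VHL+/+ minus that in VHL-/- cells was above 0 for all 6 genes with both shRNAs, and none passed. For PBRM1 shRNA it was 0.75 for ISG15 (SE 0.29, adjusted p = 1), 0.77 for UBE2L6 (SE 0.24, adjusted p = 1), 0.75 for USP18 (SE 0.18, adjusted p = 0.903), 0.52 for UBA7, 0.36 for HERC6 and 0.17 for HERC5. For KDM5C shRNA it was 0.86 for ISG15 (SE 0.29, adjusted p = 0.448), 0.73 for UBE2L6 (SE 0.24, adjusted p = 0.443), 0.60 for USP18 (SE 0.18, adjusted p = 0.388), 0.58 for UBA7, 0.51 for HERC6 and 0.20 for HERC5. In limma, 0 of the 13141 genes were called in either test (0%). At an unadjusted p under 0.05 there were 553 genes for PBRM1 shRNA and 1014 for KDM5C shRNA, among them 4 of the 6 in each, ISG15, UBA7, UBE2L6 and USP18. Calls in VHL-/- but not in VHL+/+ cells are therefore not shown to be a difference between the backgrounds. The interactions contain the same SCR arrays as the effects above, in which all 6 values were below 0 in VHL-/- cells.

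The shRNAs were also compared with each other. No member passed in either background, and no gene of the table was called in limma (0% in both), with 707 genes in VHL-/- and 545 in VHL+/+ cells at an unadjusted p under 0.05 but none of the 6. In VHL-/- cells PBRM1 shRNA minus KDM5C shRNA was -0.21 for ISG15 (95% interval -0.64 to 0.23), -0.16 for UBE2L6 (-0.53 to 0.20) and -0.18 for USP18 (-0.44 to 0.08). It was 0.04 for UBA7 (-0.29 to 0.37), -0.19 for HERC5 (-0.71 to 0.33) and -0.15 for HERC6 (-0.68 to 0.38). In VHL+/+ cells the differences lay between -0.32 (ISG15, -0.75 to 0.11) and -0.02 (UBA7, -0.35 to 0.31). These intervals include differences of over 1.5-fold for ISG15, HERC5 and HERC6 in both backgrounds, so that the shRNAs cannot be said to act alike on them.

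The pathway was set beside related gene lists, to see where else in these families genes were called. Of 51 interferon-stimulated genes other than the 6, 36 were lower with PBRM1 shRNA and 31 with KDM5C shRNA in VHL-/- cells, 10 and 7 in VHL+/+ cells, and 18 in VHL+/+ against VHL-/- SCR cells. None was higher in these 5 comparisons. Their medians were -0.80, -0.73, -0.32, -0.28 and -0.49, beside 0.00 for all genes. With PBRM1 shRNA in VHL-/- cells, EPSTI1 (-2.54), the antiviral GTPase MX1 (-2.53), IFI44L (-2.38), IFI27 (-2.07) and IFI6 (-1.58) fell most. With single arrays left out the counts ran from 28 to 37 with PBRM1 shRNA and from 23 to 34 with KDM5C shRNA in VHL-/- cells. They ran from 5 to 11 and from 3 to 9 in VHL+/+ cells, and from 3 to 23 between VHL backgrounds.

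The enzymes and modifiers of ubiquitin and its other relatives gave few calls. None of 16 other ubiquitin-like modifiers, 9 other activating enzymes, 23 other HECT ligases or 36 other ubiquitin-specific proteases was called in any of these 5 comparisons, and their medians lay between -0.06 and 0.08. Of 31 other conjugating enzymes, UBE2H alone was called, lower with KDM5C shRNA in VHL+/+ cells (-0.64, SE 0.14, adjusted p = 0.0162), and this was lost without VHL+/+ SCR replicate 1 or KDM5C shRNA replicate 1 or 2 (adjusted p up to 0.103), or without the chip term. UBE2L3, the ubiquitin E2 enzyme closest to UBE2L6, had differences of the opposite sign, all under 1.5-fold. They were 0.43 (SE 0.09, adjusted p = 0.0119) with PBRM1 shRNA and 0.33 (adjusted p = 0.0519) with KDM5C shRNA in VHL-/- cells, and 0.39 (adjusted p = 0.0334) and 0.48 (adjusted p = 0.00867) in VHL+/+ cells.

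**Figure D4:**
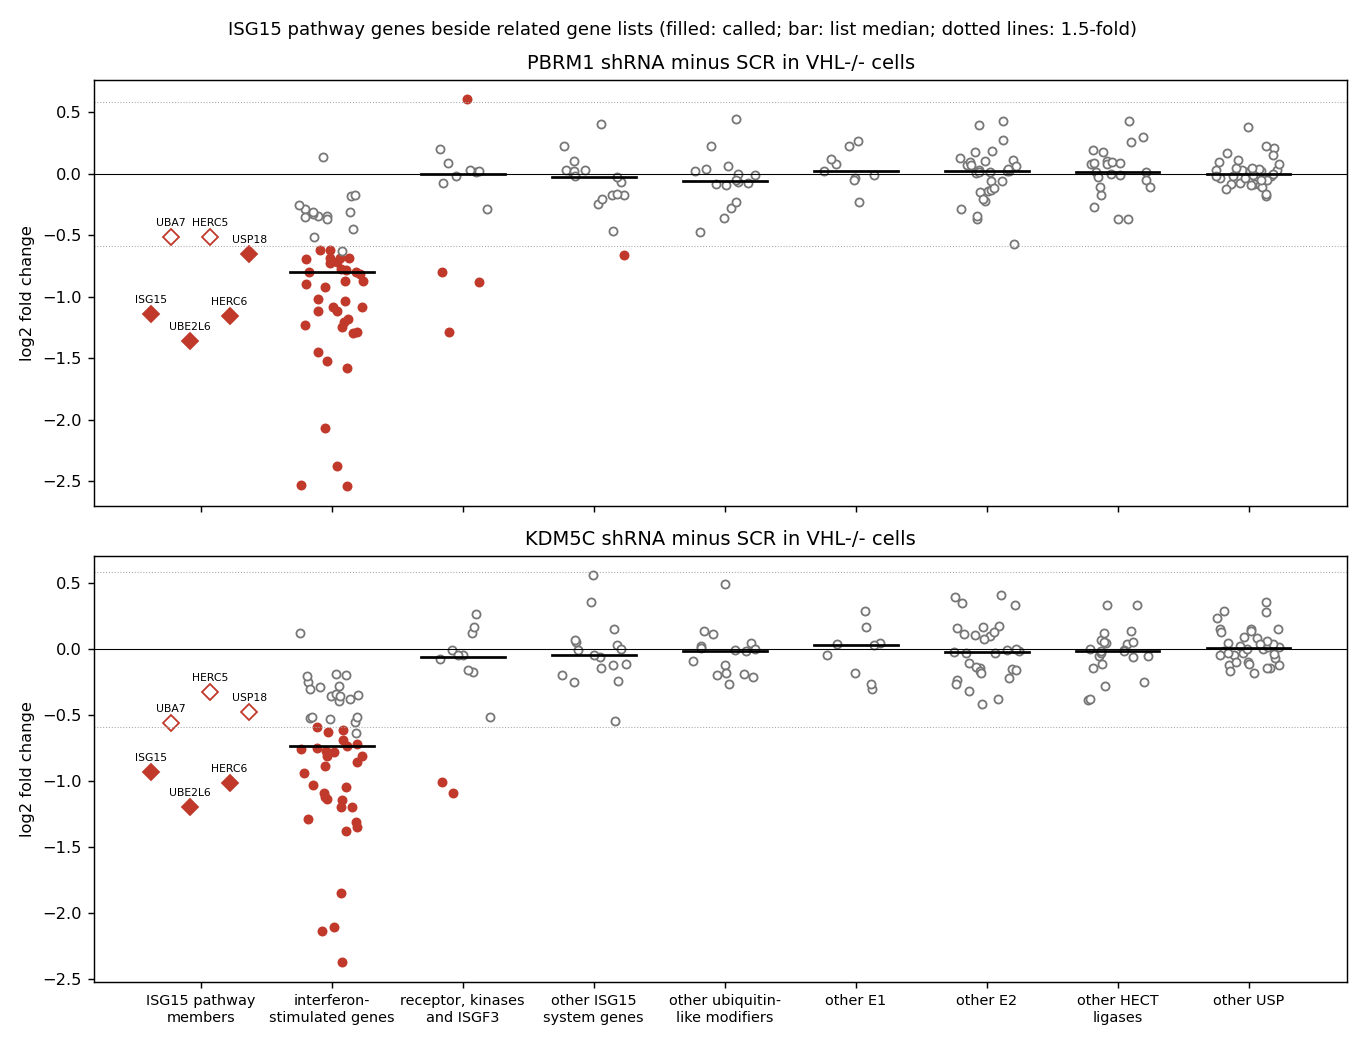
Log2 fold change (vertical axis) of each gene of the related lists (horizontal axis) with PBRM1 shRNA (top) and KDM5C shRNA (bottom) against SCR in VHL-/- cells; diamonds are the 6 pathway genes, filled symbols were called, bars are list medians and dotted lines mark 1.5-fold. Called genes lie among the pathway genes and the interferon-stimulated genes (36 and 31 of 51), with few elsewhere.

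Of 17 further genes of the ISG15 system, TRIM25, an interferon-induced ligase that can also attach ISG15, was lower with PBRM1 shRNA in VHL-/- cells (-0.66, SE 0.15, adjusted p = 0.0122). That call was lost without VHL-/- SCR replicate 1 or 2 or PBRM1 shRNA replicate 2, where adjusted p reached 0.071. TRIM25 was just under 1.5-fold with KDM5C shRNA (-0.55, adjusted p = 0.0404) and between VHL backgrounds with SCR (-0.58, adjusted p = 0.037). The other 16, among them the ligase ARIH1, HERC1 to HERC4 and the protease USP16, were not called in the 5 comparisons. Of 18 genes whose proteins are known as ISG15 targets, those lower with PBRM1 shRNA in VHL-/- cells included MX1, IFIT1 (-1.45), EIF2AK2 and DDX58, themselves interferon-stimulated. With KDM5C shRNA 4 were lower, and in VHL+/+ cells 2 and 1 (0 to 2 in both with single arrays left out).

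Among 12 genes of the interferon receptor, its kinases, ISGF3 and their inhibitors, IRF9, the DNA-binding subunit of ISGF3, was lower with PBRM1 shRNA in VHL-/- cells (-1.29, SE 0.15, adjusted p = 8.77e-05). STAT2 was lower as well (-0.88, SE 0.20, adjusted p = 0.0129). PTPN11, a phosphatase, was higher (0.61, SE 0.10, adjusted p = 0.00134). The STAT2 call was lost with VHL-/- SCR replicate 1 or 2 or PBRM1 shRNA replicate 3 left out (adjusted p up to 0.082), and PTPN11 was under 1.5-fold without SCR replicate 3 or PBRM1 shRNA replicate 2. With KDM5C shRNA, IRF9 (-1.09, SE 0.15, adjusted p = 0.000419) and STAT2 (-1.01, SE 0.20, adjusted p = 0.0059) were lower. In VHL+/+ cells IRF9 was lower with PBRM1 shRNA (-0.87, SE 0.15, adjusted p = 0.00363) and with KDM5C shRNA (-0.85, SE 0.15, adjusted p = 0.00399). PTPN11 was higher with PBRM1 shRNA there too (0.60, SE 0.10, adjusted p = 0.00281), and under 1.5-fold when either replicate 1 of VHL+/+ SCR or replicate 3 of VHL+/+ PBRM1 shRNA was left out, and on chip 1 arrays alone. Without the chip term IRF9 kept both calls in VHL-/- cells, and its calls in VHL+/+ cells and those of STAT2 and TRIM25 were lost. None of the 12 was called between VHL+/+ and VHL-/- SCR cells.

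Finally, the genes most like each member over the 18 arrays were listed, by Pearson's r after removal of the chip difference. The arrays of a group share their treatment, so r is a description. For ISG15 these were AFAP1L1 (0.95), ISG20 (0.95), OAS3 (0.94), IFIT1 (0.94) and LAP3 (0.94), and for UBE2L6 PARP9 (0.97), IFI44L (0.94) and OAS1 (0.94). For USP18 they were SLC35D1 (0.83), IRF7 (0.82) and MX2 (0.81), and for HERC6 SAMD9L (0.95) and B3GALNT2 (0.93). Those of HERC5 were MYEOV (0.95), APCDD1L (0.93) and E2F7 (0.93), and those of UBA7 HBP1 (0.90), NEU1 (0.87) and EDG4 (0.85). Between members r was highest for ISG15 with HERC6 (0.86) and ISG15 with UBE2L6 (0.82). It was 0.58 for HERC5 with HERC6 and -0.18 for UBA7 with HERC5. After group means were removed as well, so that the spread within groups alone was left, r was 0.92 for HERC5 with HERC6, 0.81 for ISG15 with HERC6 and -0.61 for UBA7 with HERC5.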

How the data were processed

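RNA of 18 samples (6 groups of 3, grouped by the labels) was hybridised to Illumina HumanHT-12 V4 arrays. The deposited values are log2 signals: the authors processed the raw data in GenomeStudio and limma, with background correction to positive values, log2 transformation, quantile normalization, a detection filter on probes and averaging of the probes of a gene. Whether a batch correction went into them is not given in the sources used here. No array was left out. Precision is limited by how few arrays each group has.

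Here limma 3.58.1 in R 4.3.3 was fitted to all 18 arrays with 6 groups and the chip (11 residual degrees of freedom) and empirical Bayes moderation. The chip served as the batch term that the methods mention. P-values were adjusted by Benjamini-Hochberg within each of 11 contrasts over 13141 genes. The fold threshold of 1.5 was read from Venn diagrams of the study, and 2, which its methods text gives, was an alternative. The fit was tested on simulated data. Promoters were searched in Python 3.11.15.

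The 6 genes, the lists and the tests were chosen with earlier results of these data known. Named genes were all 6 in every contrast, the genes most like each, and of each list up to 5 called genes with the largest change and the direct counterparts of members. A few such genes are left out of the text. Alternatives were a fit without the chip, a replicate block, the arrays of the contrast or of chip 1 alone, other fold thresholds, no dim genes, other normalizations and moderation, and each array left out. For the lists and other named genes, left-out arrays and the fit without the chip were added after the data had been seen.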

Additional observations from a re-analysis of the deposited data

How the results depend on the processing

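Of 66 results (6 genes in 11 contrasts), 12 were called. Each of the 66 was run under 28 alternatives, and 1792 of 1848 kept their direction where called and their side of the thresholds. A call was lost in 40, all of them alternatives of the 12 called results, and gained in 16. No called result reversed. Most of the 1848 belong to results that were not called and so had no call to lose. Among results that were not called, 16 changed sign somewhere. The cause was not tested. With the replicate number as a block in place of the chip, the members called were as in the report in all contrasts: 4 with PBRM1 shRNA and 3 with KDM5C shRNA in VHL-/- cells, 0 with either in VHL+/+ cells, 3, 1 and 1 between VHL backgrounds with SCR, PBRM1 shRNA and KDM5C shRNA, and 0 elsewhere. Deviations of same-numbered arrays correlated at -0.172 to 0.722, so the numbers were not taken to pair arrays, and 12 of 18 arrays correlated best with their own number.

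With chip 1 arrays alone, 5 members were called with PBRM1 shRNA in VHL-/- cells (HERC5 added, -1.01, adjusted p = 0.00772) and 4 with KDM5C shRNA (UBA7 added, -0.61, adjusted p = 0.0164), 1 member was called with PBRM1 shRNA in VHL+/+ cells (UBE2L6, -0.71), 5 between VHL backgrounds with SCR, 0 with PBRM1 shRNA, and 1 in the PBRM1 interaction (ISG15, 1.29, adjusted p = 0.0163). With the arrays of the contrast alone, 2 were called with PBRM1 shRNA in VHL+/+ cells (UBE2L6 and HERC6), and HERC5 was lost between backgrounds with PBRM1 shRNA and KDM5C shRNA (0 members each, adjusted p = 0.194 and 0.0643). Without the chip term HERC5 was also lost in both (0 members each, adjusted p = 0.0829 and 0.0717), as was HERC6 with KDM5C shRNA in VHL-/- cells (adjusted p = 0.064). At a fold change of at least 2, USP18 with PBRM1 shRNA, ISG15 with KDM5C shRNA and UBE2L6 between SCR backgrounds were not called. Over all genes, chip 1 alone gave 321 calls with PBRM1 shRNA and 223 with KDM5C shRNA in VHL-/- cells. For PBRM1 shRNA in VHL+/+ cells, chip 1 alone gave 91 and the arrays of the contrast 131.

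With single arrays left out, the members called ranged from 2 to 5 with PBRM1 shRNA and from 1 to 4 with KDM5C shRNA in VHL-/- cells, from 0 to 1 and from 0 to 0 in VHL+/+ cells, and from 0 to 4, 0 to 1 and 0 to 1 between backgrounds with SCR, PBRM1 shRNA and KDM5C shRNA. They stayed at 0 in the interactions and between the shRNAs. The counts over all genes, in either direction, moved in these fits too. With PBRM1 and KDM5C shRNA they ran from 195 to 340 and from 156 to 206 in VHL-/- cells. In VHL+/+ cells they ran from 95 to 169 and from 104 to 176. Between backgrounds they ran from 79 to 174 with SCR, 88 to 138 with PBRM1 shRNA and 87 to 143 with KDM5C shRNA.

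Counts over all genes moved with the fold threshold and the chip. With PBRM1 and KDM5C shRNA in VHL-/- cells, 238 and 192 genes were called, 57 and 43 at 2-fold and 714 and 628 without a fold threshold. In VHL+/+ cells 124 and 150 were called, 21 and 23 at 2-fold, and 327 and 551 without one. Between backgrounds with SCR, PBRM1 shRNA and KDM5C shRNA, 135, 134 and 117 were called, 40, 43 and 38 at 2-fold, and 420, 311 and 364 without one. Without the chip term they were 60, 39 and 54, with chip 1 alone 238 in SCR cells, with the arrays of the contrast 55 and 43 in shRNA cells, and KDM5C shRNA in VHL+/+ cells gave 88 without the chip term. In the interactions and between the shRNAs in VHL-/- cells, where 0 genes were called, chip 1 alone gave 10 (PBRM1), 4 (KDM5C) and 15, and left-out arrays up to 12, 13 and 1. The other scalings moved the median of all genes by at most 0.00426.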
